A study of Homo sapiens with 30 samples.

Results

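The long intergenic RNAs described here are the 143 genes whose symbol is LINC followed by digits and whose mean over 30 libraries of A549 cells was at least 0.5 CPM (a count divided by the column total and scaled to 1000000 counts). They were chosen by this name and this mean level alone, over all groups. They were taken from 60675 gene rows, in which 2214 genes carried such a symbol and 1043 of these had a count in some library. A549 is an established line from a human lung adenocarcinoma, and the series applied ethanol extracts of Korean tonifying herbal formulas to it for 24 h. The formulas were Sagunja-tang, Samul-tang, Palmul-tang, which unites the herbs of the first pair, and Sibjeondaebo-tang, which adds astragalus root and cinnamon bark to Palmul-tang. Each was given at a low, a medium and a high dose of 20, 100 and 500 µg/mL. Each dose was sequenced in 3 libraries for Sibjeondaebo-tang and Palmul-tang, in 2 for Samul-tang and in 1 for Sagunja-tang, beside 3 libraries of cells given vehicle only. The series text allows other doses for an extract that inhibited the cells below 500 µg/mL, while the sample labels give the doses above throughout. The sample labels give the vehicle as 0.1% DMSO and the series text as 2% DMSO. The labels do not say whether the replicate libraries came from separate cultures, so the p-values measure the spread between libraries only.

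Long intergenic non-coding RNAs are transcribed by RNA polymerase II, capped and mostly spliced and polyadenylated like messenger RNAs, but code for no long protein. Many are made at low levels, stay in the nucleus, and are removed there by the nuclear exosome with its adaptor complexes. LINC is a naming class, given when a transcript has no better name, so the name implies no shared function. In lung cancer cells a few of them, such as LINC00511, LINC01123 and LINC01133, have been studied for effects on proliferation or invasion.

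The name fitted most members, but not all. In the GENCODE 29 annotation of GRCh38, 111 of the 143 were typed as lincRNA, 16 as processed transcripts and 7 as transcribed unprocessed pseudogenes, and the type of LINC02693 was protein-coding. Exons of 58 members overlapped another annotated gene, 25 of them on the same strand and 43 on the other strand. The whole span of 4 members lay within that of a protein-coding gene, among them LINC00993 within ANKRD30A. A stretch of at least 300 bases with 98% identity or more to a transcript of another locus was found for 25 members. Reads from such stretches, and from exons that overlap without a stated strand setting, can be credited to either gene. Members had a median of 4 exons and 3005 exonic bases, and lay a median of 52345 bases from the start of the nearest protein-coding gene.

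Shown first are promoters of the leading members called lower at the high Sibjeondaebo-tang dose, both against its low dose and against Palmul-tang. They are the 3 that fell most among such members with a RefSeq promoter that starts within 250 bases of the GENCODE 29 start. The promoter of LINC00886, the member that differed most between vehicle and the low doses, follows. Each runs from 250 bases before to 50 bases after the RefSeq start (GRCh38.p14), 5′ to 3′ on the gene's strand, and capitals mark matches to the motifs named below. The positions are chr12:116533172-116533471 (+) for LINC00173, chr1:778548-778847 (+) for LINC01409, chr6:71420696-71420995 (-) for LINC00472 and chr3:156817013-156817312 (-) for LINC00886.
LINC00173: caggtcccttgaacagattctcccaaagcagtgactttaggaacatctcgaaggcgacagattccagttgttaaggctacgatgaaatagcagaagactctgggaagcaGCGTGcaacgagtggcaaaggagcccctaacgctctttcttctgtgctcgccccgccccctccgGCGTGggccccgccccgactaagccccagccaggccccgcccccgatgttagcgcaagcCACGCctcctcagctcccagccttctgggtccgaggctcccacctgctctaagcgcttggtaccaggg
LINC01409: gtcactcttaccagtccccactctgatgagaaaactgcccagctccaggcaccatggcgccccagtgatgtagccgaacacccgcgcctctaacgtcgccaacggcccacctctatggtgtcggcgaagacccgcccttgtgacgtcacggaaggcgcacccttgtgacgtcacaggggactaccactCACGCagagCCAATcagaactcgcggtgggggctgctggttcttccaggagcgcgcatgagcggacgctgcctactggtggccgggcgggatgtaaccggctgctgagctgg
LINC00472: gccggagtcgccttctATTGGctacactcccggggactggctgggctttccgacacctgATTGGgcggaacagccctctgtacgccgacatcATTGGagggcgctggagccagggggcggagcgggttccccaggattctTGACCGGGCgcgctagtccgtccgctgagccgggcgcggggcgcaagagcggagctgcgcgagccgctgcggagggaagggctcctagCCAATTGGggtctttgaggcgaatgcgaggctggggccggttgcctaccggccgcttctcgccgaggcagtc
LINC00886: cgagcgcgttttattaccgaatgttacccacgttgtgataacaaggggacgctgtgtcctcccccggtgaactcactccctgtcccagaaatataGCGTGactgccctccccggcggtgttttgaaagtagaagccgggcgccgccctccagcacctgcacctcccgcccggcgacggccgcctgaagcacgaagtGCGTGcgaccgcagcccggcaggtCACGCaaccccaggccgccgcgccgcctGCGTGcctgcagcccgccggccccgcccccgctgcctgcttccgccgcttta

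The letters searched on both strands were GCGTG, the core of the xenobiotic response element, CACGTG, an E-box, TGACNNNGC, the core of the antioxidant response element, CCAAT, the box bound by NF-Y, and for the TATA box the letters TATAAA. The xenobiotic core was found 3 times in the LINC00173 promoter, 4 times in that of LINC00886, 1 time in that of LINC01409 and not in that of LINC00472. The LINC00472 promoter held CCAAT 5 times, with a forward and a reverse match overlapping in 1 place, and TGACNNNGC 1 time. Over the 108 members whose symbol matched a RefSeq promoter, GCGTG occurred in 40, or 37.0%, against 36.5% of all 35116 promoters of that length. CCAAT occurred in 51, or 47.2%, against 34.6% of all promoters. Median GC content was 59.3% in the members' promoters and 58.7% in all. These matches describe letters in a window and nothing about binding.

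The near-identical copies bear on which member a read was assigned to. LINC01123 and LINC01106, which lie on chromosome 2, shared an aligned stretch of 2256 bases at 99.5% identity, and the first 120 bases of it are the same in both.
LINC01123 and LINC01106: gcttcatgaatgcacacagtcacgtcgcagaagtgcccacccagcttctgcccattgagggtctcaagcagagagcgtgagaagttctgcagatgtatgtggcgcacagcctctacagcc
LINC00342 shared 654 bases with APPAT at 98.9% identity. The first 120 bases of that stretch hold 1 difference, in capitals.
LINC00342: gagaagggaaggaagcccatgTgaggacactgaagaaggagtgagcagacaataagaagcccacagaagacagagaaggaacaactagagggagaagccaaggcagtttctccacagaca
APPAT: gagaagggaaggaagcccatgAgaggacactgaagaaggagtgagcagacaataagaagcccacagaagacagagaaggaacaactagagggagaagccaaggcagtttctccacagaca

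The libraries held 23986637 to 35159898 assigned counts, with a median of 32383996. Every member had at least 3 counts in every library, and all 143 passed the filter on low counts that left 17701 genes for testing. The rule itself used no comparison between groups. The values nearest its line were 0.506 CPM for LINC00689, 0.512 for LINC01460 and 0.516 for LINC00674 inside, and 0.491 for LINC02432, 0.473 for LINC02593 and 0.469 for LINC01942 outside. LINC00689 would fall below the line without the libraries of vehicle, low-dose Palmul-tang or low-dose Sagunja-tang. No other member would do so without any single group. Of the A549 marker genes, all 8 on the list were expressed, with summed levels of 12768 to 15247 CPM, and CDKN2B, deleted in this line, had a count in 1 library only. Of the markers of other cell types, PTPRC and CD3E (leukocyte) and VWF and CDH5 (endothelial) stayed at or below 0.226 CPM in every library and PECAM1 at or below 0.433 CPM. CD68, on the leukocyte list, had 12.7 to 27.0 CPM and rose between the low and high dose of Sibjeondaebo-tang (log2 change 0.60 ± 0.12, adjusted p = 0.000584). The fibroblast markers summed to 7.22 to 10.4 CPM, mainly DCN, and 0 of the 3 tested were called between these doses.

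Per exonic length the members differed widely. LINC02582 had the highest level, with 12.9 CPM per kilobase of exon, followed by LINC03061 with 9.34, LINC01234 with 7.74, LINC03060 with 7.52 and LINC01963 with 7.11. LINC01234 has been studied in lung and gastric cancer. The median member reached 1.55 CPM without length scaling, so many members rested on few counts per library. The largest counts belonged to LINC03061, which reached 2166 in 1 library.

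Summed over all members, the share of all counts was 0.0518%, 0.0531% and 0.0543% in the high-dose libraries of Sibjeondaebo-tang and 0.0618% to 0.0701% in the other 27. On the scale of the fit, CPM with TMM factors (trimmed mean of M-values), the sums were 555 to 588 CPM at that dose. They were 620 to 664 CPM at the high dose of Palmul-tang, 643 to 669 with low-dose Sibjeondaebo-tang and 653 to 685 with vehicle. The 3 libraries therefore lay below every other library on both scales. They also had the lowest TMM factors, 0.923 to 0.936 against 0.959 to 1.05, and 15173 to 15436 genes with at least 10 counts against 15362 to 16225. The summed A549 epithelial markers were 14830 to 15247 CPM there against 12768 to 14468, and the summed normal alveolar markers, mainly AGER, 1.10 to 1.45 CPM against 1.82 to 3.97. The epithelial markers did not move together. Between the low and high dose of Sibjeondaebo-tang 4 of the 8 were called higher, while CDH1 was called lower, from 155 to 134 CPM (log2 change -0.21 ± 0.04). The part of these measures, and of CD68, in the falls described next was not tested. In bulk RNA, fewer cells of a type and less RNA per cell cannot be told apart.

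**Figure D1:**
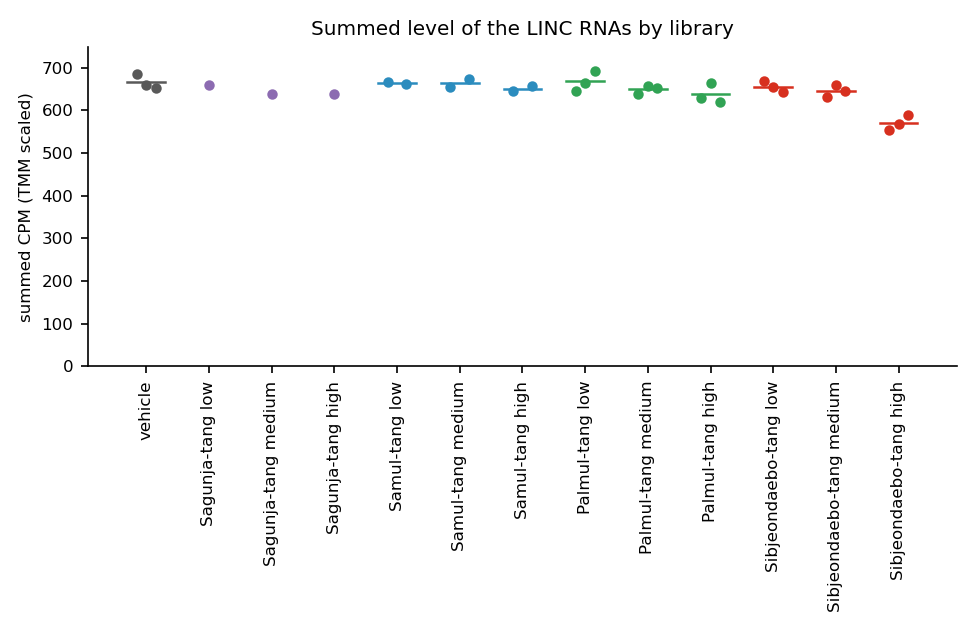
Summed level of the 143 LINC RNAs in CPM with TMM factors (vertical axis) for each library (points) by formula and dose (horizontal axis), with a bar at the mean where a group has more than 1 library. The high dose of Sibjeondaebo-tang sits at 555 to 588 CPM and every other library at 620 to 693.

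The main fall came with the dose of Sibjeondaebo-tang. Between its low and its high dose, 40 members fell and 4 rose at an adjusted p below 0.05 (edgeR quasi-likelihood test, Benjamini-Hochberg over 17701 genes). That is 30.8% of members called, 28.0% lower and 2.80% higher, where 38.4% of all genes were called, 19.9% lower and 18.5% higher. The median member changed by -0.23 on the log2 scale and the median gene by -0.01. Falls of at least 2-fold were seen in 10 members, a description only, as the share of all genes with such falls was not counted. In 47 of the 143 members every high-dose library lay below every low-dose library, which held for 24.7% of all genes. When libraries were scaled by total counts alone, the median gene changed by -0.16 and the members' split became 0 higher and 55 lower. The split of all genes moved the same way, to 649 higher and 6075 lower of 17701. DESeq2 called 26 members, 0 higher and 26 lower, in place of 44. The split of all genes under DESeq2 is not given here, so this split cannot be set against it.

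**Figure D2:**
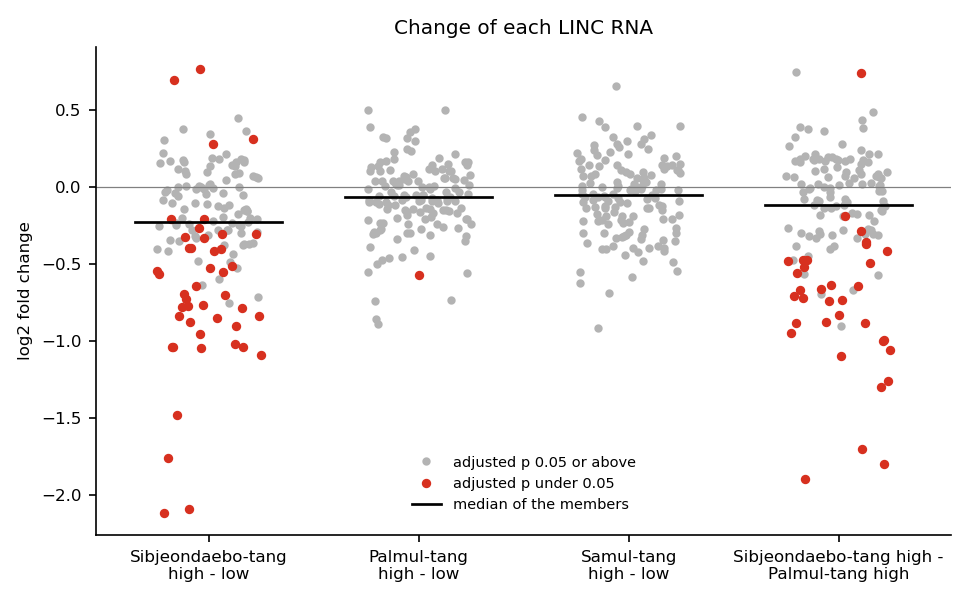
Log2 fold change of each of the 143 LINC RNAs (points, vertical axis) in 4 comparisons (horizontal axis), red where the adjusted p is below 0.05, with a bar at the median member. Red points lie mostly below 0 for both comparisons of the high dose of Sibjeondaebo-tang, and 1 red point is seen for Palmul-tang and none for Samul-tang.

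LINC00342, a spliced RNA on chromosome 2 (95807118 to 95816215, minus strand), had the smallest p-value among members. Its levels were 4.71, 5.74 and 5.77 CPM with low-dose Sibjeondaebo-tang and 1.5, 1.78 and 1.52 CPM at the high dose. The 3 high-dose values were the lowest of all 30 libraries, and the next was 3.78 CPM, in a high-dose library of Samul-tang. The fall was 3.38-fold (log2 change -1.76 ± 0.14 SE, adjusted p = 2.29e-11). As shown above, part of this RNA is nearly identical to APPAT.

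LINC00173, described in granulocytes and in lung cancer, had 0.68, 0.80 and 0.81 CPM at the low dose and 0.18, 0.22 and 0.13 CPM at the high dose. No other library fell below 0.37 CPM, the level of vehicle replicate 3, so the groups did not overlap. The change was -2.09 ± 0.35 (log2, SE; adjusted p = 1.74e-05), or 4.26-fold lower, and rested on 5, 6 and 4 counts in the high-dose libraries.

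LINC00993 had 1.13, 1.05 and 0.90 CPM at the low dose and 0.32, 0.30 and 0.10 CPM at the high dose, from 9, 8 and 3 counts. Its change, -2.11 ± 0.29 (adjusted p = 6.84e-07), was the largest fall among members. It lies within ANKRD30A, which itself went from 6.49 to 4.15 CPM (log2 change -0.65 ± 0.13, adjusted p = 1.63e-04).

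LINC01409 followed with 0.77, 1.05 and 1.05 CPM at the low dose against 0.25, 0.45 and 0.33 CPM at the high dose. Its change was -1.48 ± 0.27 (adjusted p = 6.22e-05). It shares long stretches with septin pseudogenes, so its reads may be split among them. LINC00174, with 5.95, 5.37 and 4.72 CPM at the low dose, had 2.53, 2.97 and 2.34 CPM at the high dose (-1.04 ± 0.15, adjusted p = 3.04e-06). Its exons overlap 5 annotated genes on the same strand.

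The other members with falls of at least 2-fold were LINC00858, LINC02615, LINC01355, LINC00472 and LINC01001, with log2 changes between -1.09 and -1.02. LINC00472, studied as a growth-suppressing RNA in breast cancer, went from 1.54 ± 0.27 to 0.75 ± 0.07 CPM (SD, n = 3 each). LINC01355 had 2.72, 3.41 and 3.63 CPM at the low dose and 1.57, 1.71 and 1.49 CPM at the high dose, and vehicle lay between them at 1.98 to 2.40 CPM. In all of these the low- and high-dose libraries did not overlap.

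**Figure D3:**
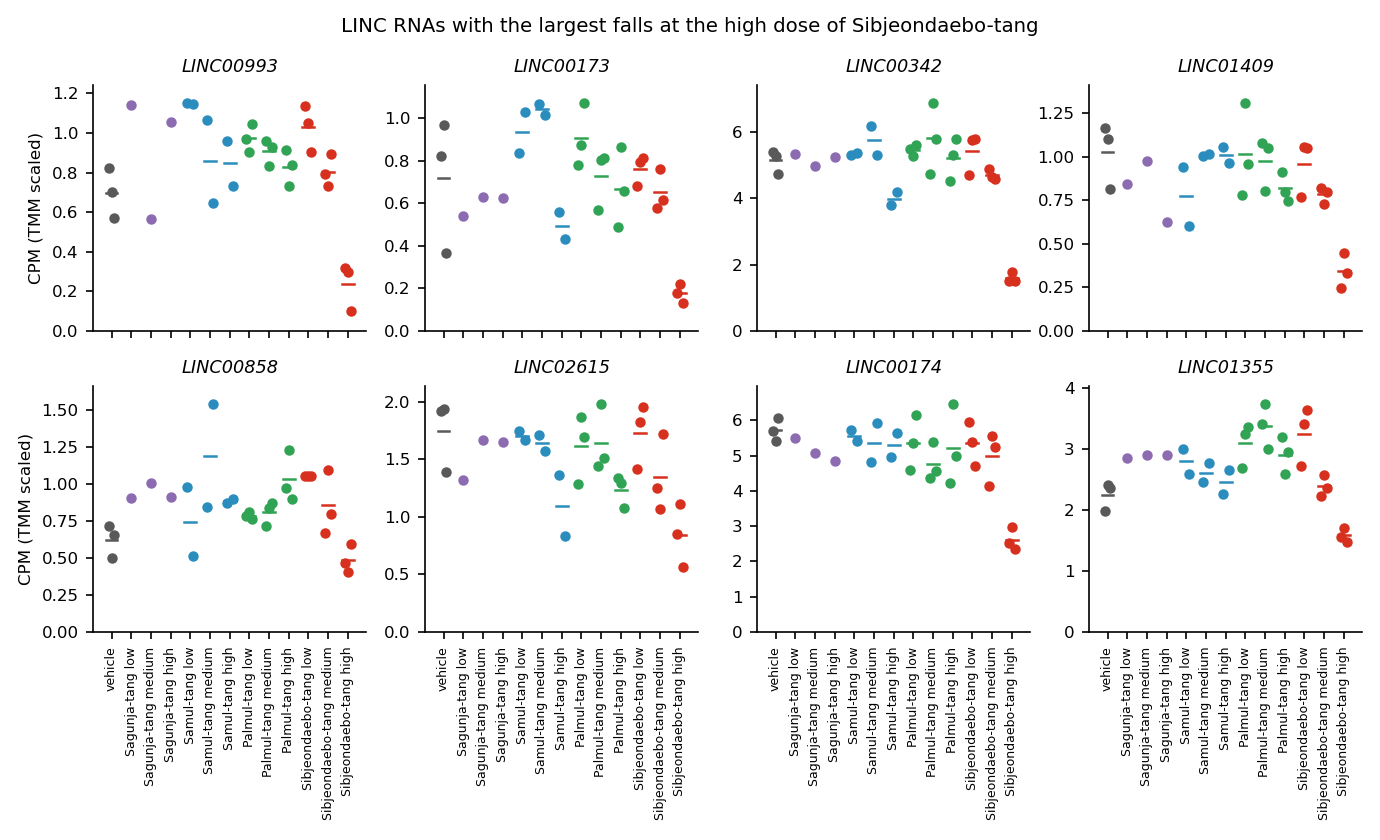
Levels in CPM with TMM factors (vertical axes) of the 8 LINC RNAs with the largest falls between the low and high dose of Sibjeondaebo-tang, for each library (points) by formula and dose, with a bar at group means. For LINC00342 the 3 high-dose points lie at 1.5 to 1.78 CPM and all other points at 3.78 or above.

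Several members with higher levels also fell, by less than 2-fold. LINC00641 had 19.8, 20.1 and 21.2 CPM at the low dose and 14.6, 16.1 and 15.2 CPM at the high dose, and every other library had at least 18.2 CPM. The change was -0.41 ± 0.07 (adjusted p = 9.55e-06). LINC01089, known as LIMT and lowered by epidermal growth factor in breast cells, had 7.65, 8.5 and 7.75 CPM at the low dose and 4.49, 4.94 and 5.05 CPM at the high dose. Its change was -0.72 ± 0.09 (adjusted p = 1.35e-07), and it starts 274 bases from SETD1B on the opposite strand.

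Of the 6 members with the highest mean CPM, 4 fell and 2 did not pass the test. LINC03061, the most abundant by counts, had 54.2, 46.6 and 42.4 CPM at the low dose and 28.5, 36.3 and 35 CPM at the high dose (-0.52 ± 0.12, adjusted p = 0.00161). LINC02582, LINC02864 and LINC01278 fell by 0.31, 0.21 and 0.40 on the log2 scale. LINC01234 (0.07 ± 0.05, adjusted p = 0.318) and LINC02693 (0.00 ± 0.08, adjusted p = 0.990) did not pass.

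LINC01106 and LINC01123, which share the stretch shown above, both fell. LINC01106 went from 20.1, 21.7 and 19.9 CPM to 12.4, 13 and 16.4 CPM (-0.56 ± 0.10, adjusted p = 5.73e-05). LINC01123 went from 13.1, 12.1 and 11.1 CPM to 7.30, 6.61 and 7.33 CPM (-0.77 ± 0.13, adjusted p = 7.82e-05). How many of these reads belong to which gene cannot be told from the counts, and the same holds for LINC01001 and LINC01002, which changed by -1.02 and -0.78.

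The 4 members that rose were LINC02709, LINC01816, LINC02762 and LINC00339. LINC02709 had 0.68, 0.57 and 0.54 CPM at the low dose and 1.32, 0.78 and 0.96 CPM at the high dose (0.77 ± 0.25, adjusted p = 0.0150). LINC01816 changed by 0.70 ± 0.24, LINC02762 by 0.31 ± 0.11 and LINC00339 by 0.28 ± 0.11. All of these calls were weak: each was lost under total-count scaling, where the changes were 0.62, 0.55, 0.16 and 0.13, under DESeq2, and without low-dose replicate 3.

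Among 25 LINC RNAs listed because they have been studied in lung or other cancers, 22 were tested, and 7 fell and 0 rose between these doses. Of all members 28.0% fell and 2.80% rose, and of all genes 19.9% fell and 18.5% rose. LINC01004, tested with a mean of 0.39 CPM, is on the list but is not a member. The 7 fallers of the list were LINC00342, LINC00174, LINC00472, LINC01123, LINC01138, LINC00641 and LINC01133. LINC01133, studied in squamous lung carcinoma, went from 4.23 ± 0.30 to 3.36 ± 0.19 CPM (SD, n = 3 each; -0.33 ± 0.10, adjusted p = 0.0112). LINC00511, LINC00941, LINC00963 and LINC00662 did not pass, with log2 changes of 0.09, 0.15, 0.01 and 0.09. LINC00261, an RNA next to the endoderm factor gene FOXA2, had 1.15 ± 0.44 CPM at the low and 1.06 ± 0.10 CPM at the high dose.

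Genes of like level give the scale for these counts. Among genes with a mean of 0.5 to 5 CPM, 22.8% of 114 LINC members were called lower, against 24.6% of all 3992 genes, 30.9% of 939 other long non-coding genes and 19.9% of 2381 protein-coding genes. Among genes with 5 to 50 CPM, 48.3% of 29 members, 44.3% of 192 other long non-coding genes, 48.3% of 147 pseudogenes and 22.6% of 6736 protein-coding genes were called lower. The members' share was thus near that of other non-coding classes in the upper band and below it in the lower band. Called higher were 2.63% of members in the lower band, against 3.43% of all genes, 1.06% of other long non-coding genes and 4.49% of protein-coding genes. In the upper band they were 3.45% of members, 1 of 29, against 20.8%, 9.38% and 21.5%.

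**Figure D4:**
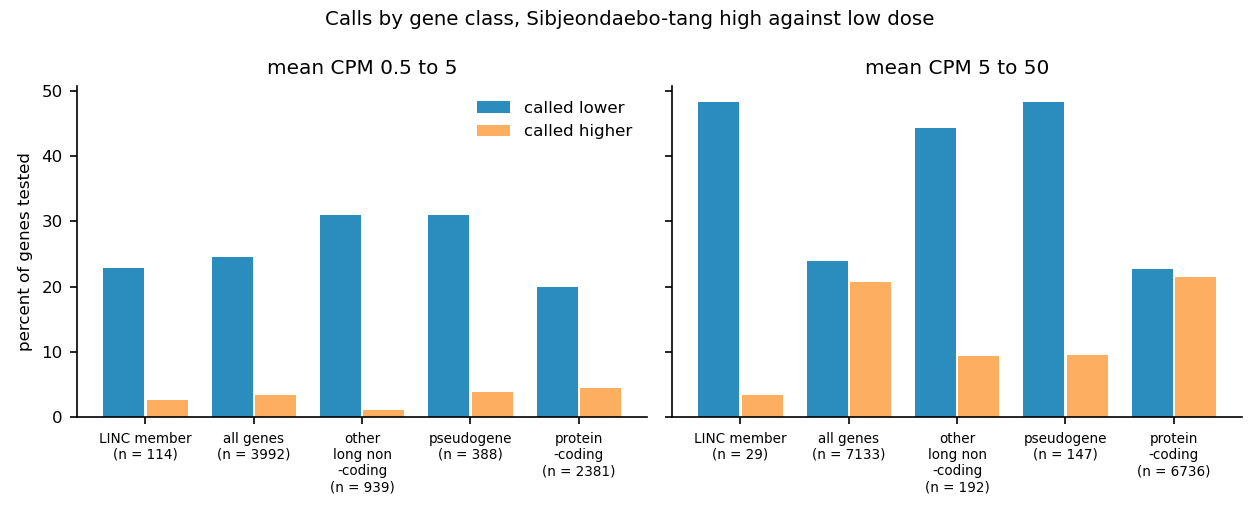
Percent of tested genes called lower (blue) and higher (orange) between the high and low dose of Sibjeondaebo-tang, by gene class (horizontal axis, with the number of genes), at mean levels of 0.5 to 5 CPM (left) and 5 to 50 CPM (right). In the right panel the LINC members are at 48.3% lower, close to pseudogenes at 48.3%, and protein-coding genes are at 22.6%.

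Within the members, those with more exonic sequence were called lower more often. Of 71 members above the median exon length, 29 were called lower, with a median log2 change of -0.29, and of the other 72, 11 were called lower, with a median of -0.11. Longer members also collect more counts, which makes a call easier, and the part of this was not tested. Of 25 members with a near-identical copy, 10 were called lower, and of 118 without, 30. With neither a copy nor an exon overlap, 20 of 79 members were called lower and their median change was -0.21, near that of all members.

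The nearest protein-coding genes were described for the same doses. Of the 40 members called lower, 29 had a nearest coding gene that was tested, and 8 of these genes were called lower and 4 higher, where 19.9% and 18.5% of all genes were. Their median log2 change was -0.01. KCTD7, nearest to LINC00174, changed by -0.51 ± 0.08, and ANKRD36C, nearest to LINC00342, by -0.46 ± 0.15. HNRNPR, nearest to LINC01355, changed by 0.18 ± 0.04, the opposite direction from its neighbour. Over all 108 members with a tested neighbour, Pearson's r between the changes was 0.19. The points share libraries, and r is given as a description.

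Genes of the machinery that trims and removes such RNAs were called in both directions between these doses, where 18.5% of all genes were higher and 19.9% lower. Of 27 genes of the nuclear exosome and its adaptors, 3 were higher and 5 lower. ZFC3H1, a subunit of the adaptor for polyadenylated nuclear RNAs, went from 56.9 ± 1.33 to 28.0 ± 1.06 CPM (SD, n = 3 each; -1.03 ± 0.06, adjusted p = 6.88e-15), while EXOSC4, a core exosome subunit, changed by 0.36 ± 0.06. Of 15 nonsense-mediated decay genes, 3 were higher, among them SMG6 with 0.14 ± 0.05, and 6 lower, among them the kinase gene SMG1 with -0.65 ± 0.05. Of 25 Integrator and cleavage genes, 9 were higher and 3 lower. INTS1 changed by 0.26 ± 0.05 and PCF11, a transcription termination factor, by -0.47 ± 0.05. Among 14 snoRNA host genes, 1 was higher, SNHG6 at 0.17 ± 0.06, and 5 lower, with SNHG12 at -0.82 ± 0.09. Of 7 other well-known long non-coding RNAs, 1 was higher, CYTOR at 0.35 ± 0.08, and 4 lower, with NEAT1, the scaffold of paraspeckles, at -1.69 ± 0.13. The imprinted MEG3 changed by -1.67 ± 0.45, a less precise value from low means of 0.53 and 0.16 CPM. Between the low and high doses of Palmul-tang and of Samul-tang, 0 genes of these lists were called. Of all genes 3.47% and 1.34% were called there, and with shares this low, lists of this size can hold 0 calls without differing from all genes. Any part of the listed genes in the members' changes was not tested.

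The other formulas changed few members with dose. Between the low and high dose of Palmul-tang, 1 of 143 members was called, 0.699%, and it was lower. Of all genes 3.47% were called, 1.46% higher and 2.02% lower. At an unadjusted p below 0.05 there were 16 members, a threshold at which the share of all genes is not given here. The member called was LINC00707, studied in lung adenocarcinoma. Its levels were 5.03, 5.39 and 6.26 CPM at the low dose, 4.91, 4.61 and 4.51 CPM at the medium dose and 3.38, 4.21 and 3.70 CPM at the high dose. No high-dose value reached the lowest low-dose value, and the change was -0.57 ± 0.11 (adjusted p = 0.00119). At the high dose of Sibjeondaebo-tang it changed by -0.30 ± 0.11 (adjusted p = 0.0302). For Samul-tang it changed by -0.29 ± 0.14 (adjusted p = 0.317).

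With Samul-tang, 0 members were called between low and high dose by edgeR. DESeq2 also called 0, but gave no adjusted p for 115 of the 143 members. Of all genes 1.34% were called by edgeR, 0.604% higher and 0.740% lower. By edgeR 15 members had an unadjusted p below 0.05. That count cannot be set against these shares, which use the adjusted p. The share of all genes at the unadjusted threshold is not given here. With 2 libraries per dose, the largest fall in value was that of LINC00173, from 0.84 and 1.03 to 0.56 and 0.43 CPM (-0.91 ± 0.34, adjusted p = 0.193). Between the low and medium doses, 0 members were called for Sibjeondaebo-tang, where 0.0113% of all genes were called, and 0 for Palmul-tang, where 0.00565% were. Each had 6 of 143 members at an unadjusted p below 0.05, without the share of all genes at that threshold to set it against. DESeq2 called 0 in both, but for Sibjeondaebo-tang it gave no adjusted p for 135 of the 143 members. LINC00342 had 4.87, 4.62 and 4.58 CPM with medium-dose Sibjeondaebo-tang, 2 of them below the low-dose range, which started at 4.71 CPM.

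At the high dose the pair of formulas that differ by astragalus root and cinnamon bark differed from each other. Members lower with Sibjeondaebo-tang numbered 33 and members higher 1, or 23.1% and 0.699%, where 30.3% of all genes were called, 16.0% lower and 14.3% higher. This comparison shares its Sibjeondaebo-tang libraries with the comparison of doses. LINC00342 had 4.50, 5.31 and 5.79 CPM with Palmul-tang, above its 3 values of 1.5 to 1.78 CPM with Sibjeondaebo-tang (-1.70 ± 0.14, adjusted p = 9.39e-11). LINC00173 differed by -1.89 ± 0.36 and LINC00993 by -1.80 ± 0.30. LINC01001 had 2.98, 3.85 and 3.16 CPM against 1.35, 1.45 and 1.25 CPM (-1.30 ± 0.18, adjusted p = 1.63e-06). The single member higher was LINC00957, at 0.49, 0.76 and 0.51 CPM with Palmul-tang and 1.00, 1.00 and 0.92 CPM with Sibjeondaebo-tang (0.74 ± 0.25, adjusted p = 0.0266). That call was lost without Palmul-tang replicate 1 or 3 or without Sibjeondaebo-tang replicate 1 or 2. It was also lost with total counts alone (adjusted p = 0.0694) and with DESeq2 (adjusted p = 0.0882).

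The difference between the formulas' responses to dose was tested as an interaction. It called 18 members, 12.6%, all with the more negative response to Sibjeondaebo-tang, where 14.9% of all genes were called, 9.29% in that direction and 5.59% in the other. LINC00342 changed by -1.76 with Sibjeondaebo-tang and by -0.07 with Palmul-tang, a difference of -1.69 ± 0.18 (adjusted p = 7.19e-08). LINC00858 changed by -1.09 and 0.39, a difference of -1.48 ± 0.36 (adjusted p = 0.00450). For LINC00641 the changes were -0.41 and 0.04, and the difference was -0.45 ± 0.09 (adjusted p = 7.47e-04). Without Palmul-tang low-dose replicate 1 or Sibjeondaebo-tang high-dose replicate 1 the count dropped to 11.

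Comparisons with vehicle have a limit set by the labels. The titles place all 30 libraries in the same batch, E, but the library codes of the 3 vehicle libraries carry another prefix than those of all extract libraries. What the prefix stands for is not given in the sources used here, and vehicle and prefix cannot be told apart. Against vehicle, 23 members differed on average over the 3 replicated low doses, 13 higher and 10 lower (9.09% and 6.99%), where 42.6% of all genes were called, 21.3% higher and 21.2% lower. Scaled by total counts alone the split was 16 higher and 7 lower, and that of all genes 4309 higher and 3115 lower. LINC00886 had 3.59, 3.21 and 3.79 CPM with vehicle and between 4.94 and 6.60 CPM in the 8 low-dose libraries. It lay above the vehicle range in all 27 extract libraries, the lowest being 3.92 CPM in a high-dose library of Sibjeondaebo-tang (low doses against vehicle 0.78 ± 0.11, adjusted p = 1.10e-06).

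LINC02604, a gene of 1 exon, was lower: 10.1, 8.71 and 8.20 CPM with vehicle and 5.69 to 7.76 CPM at the low doses (-0.46 ± 0.11, adjusted p = 0.00106). It fell further at the high dose of Sibjeondaebo-tang, to 2.96, 3.60 and 4.03 CPM. LINC01431 had 1.33, 1.47 and 1.59 CPM with vehicle and 0.80 to 1.19 CPM at the low doses (-0.63 ± 0.15, adjusted p = 0.00102). LINC00993, the largest faller with dose, was 1.49-fold higher at the low doses than with vehicle (0.57 ± 0.20, adjusted p = 0.0207). That call was lost without vehicle replicate 2 (0.58, adjusted p = 0.0620) or 3 (0.46, adjusted p = 0.109), and with DESeq2 (adjusted p = 0.0856). Without vehicle replicate 1 the count of members called fell from 23 to 15.

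**Figure D5:**
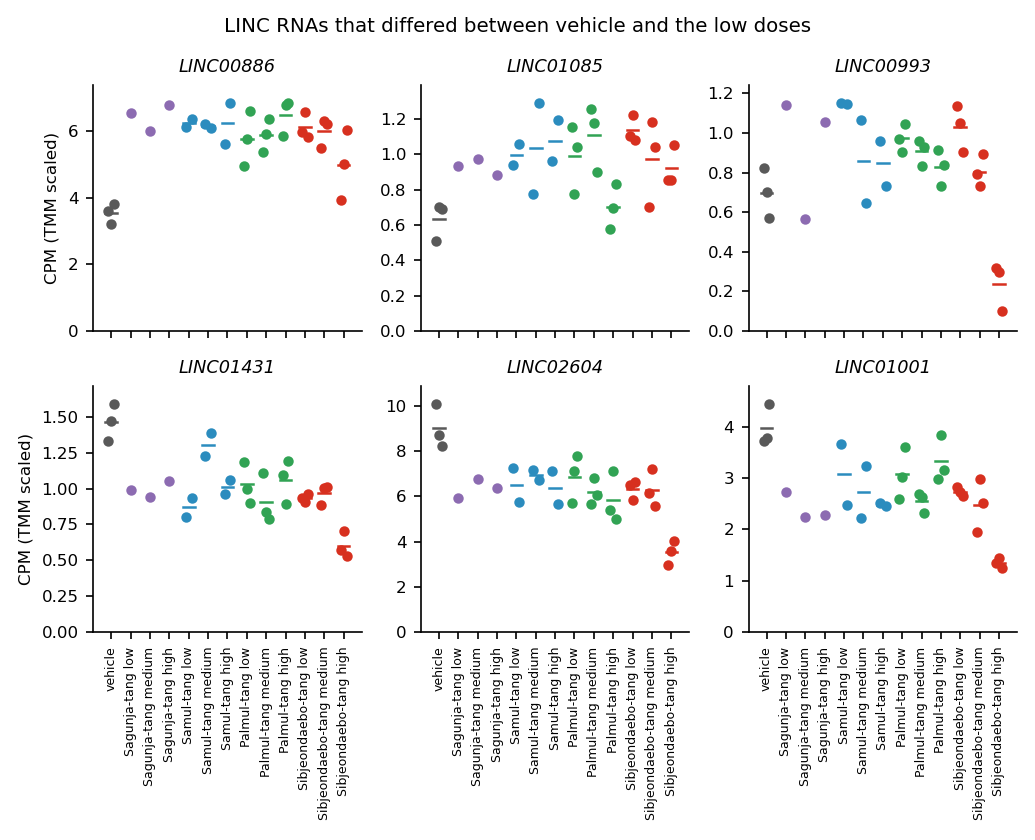
Levels in CPM with TMM factors (vertical axes) of 6 LINC RNAs called between vehicle and the low doses, for each library (points) by formula and dose, with a bar at group means. LINC00886 lies at 3.21 to 3.79 CPM with vehicle and at 3.92 CPM or above in every extract library.

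Against the same vehicle libraries, the high dose of Sibjeondaebo-tang gave 40 members lower and 6 higher (28.0% and 4.2%, where 41.8% of all genes were called, 21.8% lower and 20.0% higher). The high dose of Palmul-tang gave 12 lower and 6 higher (8.39% and 4.2%, where 37.1% of all genes were called, 18.1% lower and 19.0% higher). Among the 12 is LINC00689, which would not have met the 0.5 CPM rule without the vehicle libraries. Its call against vehicle therefore rests in part on the choice of members. LINC00342 changed by -1.69 ± 0.15 with Sibjeondaebo-tang and by 0.01 ± 0.12 with Palmul-tang. LINC01355 changed by -0.50 ± 0.16 with the first and by 0.38 ± 0.14 with the second. The second call was lost without vehicle replicate 1 or Palmul-tang replicate 1 or 3. It was also lost with no filter (adjusted p = 0.0747), with only the groups compared (adjusted p = 0.0693) and with DESeq2 (adjusted p = 0.109). LINC00886 was 1.42-fold and 1.84-fold higher. For Palmul-tang the count was 9 without vehicle replicate 1 and 11 without its own high-dose replicate 1, in place of 18.

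Sagunja-tang, with 1 library per dose, allows values only. LINC00342 had 5.32, 4.98 and 5.24 CPM at its low, medium and high dose, LINC00641 had 22.9, 21.0 and 20.8 CPM, and LINC00886 had 6.53, 5.98 and 6.78 CPM. LINC00993 had 1.14, 0.57 and 1.05 CPM. None of these values lay within the range of the high-dose libraries of Sibjeondaebo-tang except for LINC00886, whose medium-dose value lay in it.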

How the data were processed

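RNA from A549 cells was sequenced as paired 100-base reads from a directional mRNA kit, per the labels' protocols. The deposited table holds expected counts per Ensembl gene, which the authors made with FastQC 0.11.9, Trim Galore 0.6.5, STAR 2.7.3a and RSEM 1.3.3 on GRCh38, per the submitters' processing notes. The annotation release and strand setting of counting are not given in the sources used here. Of its columns, 30 belong to the samples described and 240 to other samples, which were not used. Wortmannin was not analysed here.

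Expected counts were rounded to whole numbers. edgeR 4.0.16 (R 4.3.3) fitted a quasi-likelihood model with TMM factors and 1 mean for each of 13 groups to the 17701 genes that filterByExpr kept, with 17 residual degrees of freedom. p-values were adjusted by Benjamini-Hochberg over these genes, and an adjusted p below 0.05 is a call. The SE is the log2 change divided by the square root of the F statistic. CPM of single libraries use TMM factors. The member rule uses plain CPM. Symbols came from a current gene name table, positions from GENCODE 29 and promoters from RefSeq. Copies were found with BLAST on GENCODE 29 transcripts. The fit was tested on simulated data. Alternatives were DESeq2 1.42.0, other scalings, no filter, a replicate block, only the groups compared, and leaving out each library.

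Members and lists were chosen with earlier results of these data known. The naming rule took, per comparison, up to 8 called members with the largest change in each direction, those without overlap first. It also took the 6 with the highest CPM, the 3 on either side of the line and the cancer list. Nearest coding genes of the leading members and up to 4 genes with the smallest p of other lists were added. Only part of what the rule took is described above, without a further rule for that part. LINC01106 and LINC01002 were singled out, and LINC00641 and LINC01089 described at length, after their values were seen.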

Additional observations from a re-analysis of the deposited data

Results flagged for a closer look

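The responses to dose of 8 members differed most between Sibjeondaebo-tang and Palmul-tang by the interaction test (edgeR, Benjamini-Hochberg over all genes tested). The differences, Sibjeondaebo-tang minus Palmul-tang on the log2 scale, were -1.88 for LINC00993, -1.69 for LINC00342, -1.64 for LINC00173 and -1.48 for LINC00858. They were -1.21 for LINC01572 (adjusted p = 0.0150), -1.17 for LINC01409 (adjusted p = 0.0244), -1.12 for LINC01001 and -0.99 for LINC00174. LINC01572 overlaps another gene on the opposite strand, and its call was lost without Palmul-tang low-dose replicate 1 (adjusted p = 0.0576). The LINC01572 call was also lost with no filter (adjusted p = 0.0514) and with DESeq2 (adjusted p = 0.0878). The call of LINC01409 was lost when any of 6 libraries of these groups was left out, with adjusted p from 0.0553 to 0.0937. It was also lost with no filter (adjusted p = 0.0507) and with DESeq2 (adjusted p = 0.0894).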

How the results depend on the processing

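Counts of members called moved by over 1.5 times under few settings. With DESeq2, 26 members in place of 44 were called between the doses of Sibjeondaebo-tang, 10 in place of 18 for Palmul-tang high dose against vehicle and 13 in place of 23 for the low doses against vehicle. With total counts alone, Palmul-tang high against low dose had 2 calls, Samul-tang 1 and the interaction 29. Of all 17701 genes, 564, 463 and 3128 were then called, against 615, 238 and 2634 in the main fit. The interaction then gave 98 genes higher and 3030 lower. With no filter, Palmul-tang had 2 and Samul-tang 1. Counts of all genes are not given here for DESeq2, no filter, the replicate block or libraries left out. Under those settings the member counts are a description only. Leaving out each library gave 30 to 38 calls for Sibjeondaebo-tang high against low dose, 1 to 2 for Palmul-tang, 26 to 32 between the formulas, 11 to 19 for the interaction, 39 to 42 and 9 to 20 for Sibjeondaebo-tang and Palmul-tang against vehicle, 15 to 25 for the low doses against vehicle and 0 to 0 for Samul-tang and the medium doses. The replicate block gave 2 calls for Palmul-tang high against low dose. Libraries with the same number deviated together by a median correlation of 0.01 (63 pairs, -0.10 to 0.09), against -0.005 (-0.15 to 0.11) with other numbers. No pairing by number was seen, though a weak shared effect, or one in few genes, could be missed. With symbols of GENCODE 29, chosen after seeing the data, 135 genes were members and 38 were called between the doses of Sibjeondaebo-tang. Of the 74 calls that the naming rule took, many of them not described above, 54 held with DESeq2 and 20 did not. None of these calls changed direction under the settings run, which did not cover the splits by feature, the neighbouring genes or the gene lists. The members' median for the low doses against vehicle was -0.02, and 0.02 with total counts alone or without vehicle replicate 1. Members near the line of 0.5 CPM rest on few counts, which limits their precision.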
